A study of Mus musculus with 4 samples.

Results

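Mgmt and 4 other genes that repair alkylated DNA, Mpg, Alkbh1, Alkbh2 and Alkbh3, were examined in neural stem/progenitor cells (NSPCs) treated with the PARP inhibitor PJ34. The probes were chosen by the gene name in the array files, which gave 6 probes for 5 genes among 55681 probes on the array. Mpg had 2 probes and every other gene had 1. Mgmt was singled out because its responses in these arrays were already known, so its ratios and levels are a description and carry no test. The other 4 genes were chosen by what they do, with earlier results of these data known.

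NSPCs were cultured from Slc:ICR mouse embryos at embryonic day 13.5 as neurospheres with EGF and FGF-basic. Wild-type cells and Trp53-/- cells, from a knockout line bred from Trp53-heterozygous mice, were each compared with and without 20 μM PJ34. The strain background of the knockout line is not given in the sources used here, so strain and genotype cannot be told apart. The treatment time of the arrays is not given in the sources used here. On each of 4 two-colour Agilent arrays, RNA of PJ34-treated cells was labelled with Cy5 and RNA of untreated cells of the same genotype with Cy3. Each genotype had 2 arrays with independently prepared RNA, which the study's methods call biological replicates. Whether they came from separate embryos or cultures is not given in the sources used here. The dyes were not swapped, and a dye bias of a probe cannot be told apart from its response within a genotype.

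Cells carry several routes for removing alkyl groups from DNA. Mgmt takes the methyl group off the O6 position of guanine in a single step and is used up by the reaction, so the cell must make new protein for every lesion. Mpg is the glycosylase that cuts out methylated purines and hands the gap to the base excision repair enzymes, among them PARP-1, the target of PJ34. The AlkB enzymes oxidize methyl groups away: Alkbh2 and Alkbh3 act on methylated adenine and cytosine in double-stranded and single-stranded nucleic acid, and Alkbh1 acts on DNA and on tRNA.

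The start of each probe is given here because every value below was read from these spots. The first 30 of 60 bases are shown, and no letters are in capitals. The coordinates are those of the whole probe in the array files on the mouse build mm9.
Mgmt, A_55_P2071858, chr7:144319790-144319849, plus strand: atgacacatagatgtaacgcgtgtcggaag
Mpg, A_51_P366161, chr11:32131904-32131963, plus strand: catgggtcagtgtggtagacagagtggctg
Mpg, A_55_P2109983, chr11:32127889-32127948, plus strand: gctaggaccagagttttttgaccagccagc
Alkbh1, A_52_P522023, chr12:88769637-88769696, minus strand: cccatcttagagcgaaaactgattagagtt
Alkbh2, A_55_P2037186, chr5:114573947-114574006, minus strand: ctccgcgggtcaacttgacttttcggaaaa
Alkbh3, A_55_P1991723, chr2:93820827-93820886, minus strand: gtcaacatgtctactacaggaacacttact
Each probe had 1 spot per array, and all 6 were well above background in both channels of all 4 arrays. Whether a probe lies in a coding exon or in an untranslated exon was not determined, because no annotation of mm9 was used.

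The arrays were checked before the genes were read. Between 21505 and 24540 probes were well above background in the control channel and between 26081 and 27156 in the PJ34 channel. The 10 marker genes of neural stem/progenitor cells, such as Nes and Sox2, were above background in the control channel of every array, whereas no marker of endothelium, fibroblasts or red blood cells was. At the probe A_51_P363947 of Cdkn1a, the p21 gene, PJ34 over control was 1.84 and 1.23 on the log2 scale in wild-type and -0.48 and -0.74 in Trp53-/- cells. The probe of Trp53 itself was still above background in Trp53-/- cells, with control log2 levels of 7.56 and 7.82 against 8.28 and 8.51 in wild-type. The array of Trp53-/- replicate 2 stood apart in sex-linked genes: Eif2s3y had a log2 ratio of 4.22 and Ddx3y of 3.12, and Xist had -1.39. The Trp53-/- values of Mgmt, Mpg, Alkbh2 and some other genes are therefore also given without it. Those of several list genes, the marker calls and the likeness distances are given only with it. The genotypes also differed in these genes. Control log2 levels of Eif2s3y were 8.96 and 8.47 in wild-type and 6.01 and 6.24 in Trp53-/- cells. Those of Ddx3y were 8.25 and 8.06 against 6.04 and 6.17, and those of Xist 7.23 and 6.56 against 7.58 and 7.51. Kdm5d and Uty were too dim to be kept. A difference in sex between the cultures was not tested and cannot be told apart from the genotype. On Trp53-/- replicate 2 it would lie between the channels. There the log2 level of Eif2s3y was 6.24 in control and 10.46 with PJ34, and that of Ddx3y 6.17 and 9.29. Within this array sex and treatment cannot be told apart. Both wild-type arrays were scanned in an earlier period than both Trp53-/- arrays. The scan period and the genotype therefore cannot be told apart, for levels and for differences of the response. A dye bias cancels in such a difference only if it was equal in both periods, which was not tested.

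Mgmt was more abundant with PJ34 in wild-type NSPCs and less abundant with PJ34 in Trp53-/- NSPCs. Before any normalization, the Mgmt spot of wild-type replicate 1 had a signal above background of 328 in the control channel and 1323 in the PJ34 channel. In wild-type replicate 2 the signals were 439 and 2698. In Trp53-/- replicate 1 they were 129 and 112, and in Trp53-/- replicate 2 they were 135 and 141. The raw ratios of PJ34 over control were thus 4.04 and 6.14 in wild-type against 0.864 and 1.04 in Trp53-/- cells. The PJ34 channel was brighter on all 4 arrays, with a median raw log2 ratio between 0.38 and 0.91 over the probes kept. Loess within each array takes out such an offset, and dye, RNA input and treatment cannot be told apart as its source.

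After normalization, the log2 ratios of Mgmt were 1.40 and 1.30 on the wild-type arrays. On the Trp53-/- arrays they were -0.82 and -0.64. The wild-type arrays were both above 0 and the Trp53-/- arrays both below 0, which is the pattern Mgmt was chosen for. The mean was 1.35 ± 0.070 (SD, n = 2) in wild-type, a 2.54-fold increase. In Trp53-/- cells it was -0.73 ± 0.13 (SD, n = 2), 1.66-fold lower with PJ34. The difference between the genotypes was 2.08 on the log2 scale, or 4.22-fold. Leaving out Trp53-/- replicate 2, the Trp53-/- ratio was -0.82 and the difference was 2.17.

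Among the 27042 probes kept after the filter on dim spots, Mgmt ranked 35 from the top in wild-type, 271 from the bottom in Trp53-/- cells and 10 from the top in the difference. By the criteria of the study's methods, a p and a Storey q below 0.05 in limma and a change of more than 2-fold, 0.436% of all probes were called in wild-type, 0.318% in Trp53-/- cells and 0.422% in the difference. Since these contrasts were known when Mgmt was chosen, nothing is read from its place in them. A ratio above 0 on both wild-type arrays and below 0 on both Trp53-/- arrays was found for 4.84% of all probes.

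**Figure D1:**
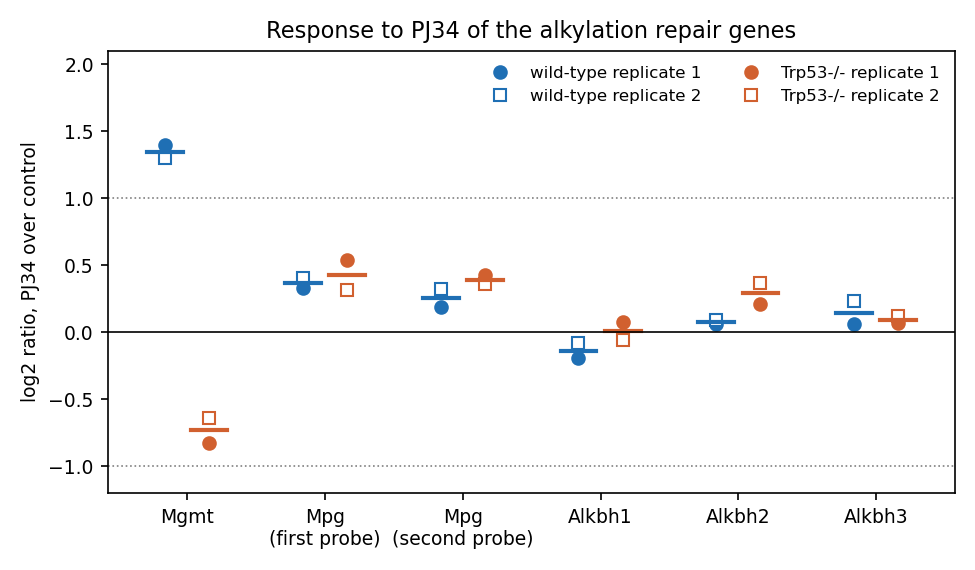
Log2 ratio of PJ34 over control (vertical axis) for each probe of the alkylation repair genes on each of the 4 arrays, with lines at the mean of each genotype (n = 2) and dotted lines at a 2-fold change. Mgmt lies at 1.40 and 1.30 in wild-type and at -0.82 and -0.64 in Trp53-/- cells, and the points of the other genes lie between -0.19 and 0.54.

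Mpg rose slightly with PJ34 in both genotypes. At its probe A_51_P366161 the log2 ratios were 0.33 and 0.41 in wild-type, and 0.54 and 0.31 in Trp53-/- cells. All 4 arrays were above 0 and the genotypes overlapped. The means were 0.37 ± 0.052 (SD, n = 2, limma q = 0.013) and 0.43 ± 0.16 (q = 0.0079), increases of 1.29-fold and 1.35-fold. The second probe, A_55_P2109983, had 0.19 and 0.32 in wild-type and 0.42 and 0.36 in Trp53-/- cells, again above 0 on every array. Its means were 0.26 ± 0.094 (limma q = 0.042) and 0.39 ± 0.043 (q = 0.0090). Without Trp53-/- replicate 2, the Trp53-/- values were 0.54 (limma q = 0.022) and 0.42 (q = 0.069). A genotype left with 1 array is assumed to vary like the other genotype, and over all probes the share that passed as increases in Trp53-/- cells then fell from 12.0% to 3.17%. Without either wild-type array, neither probe passed in wild-type, with q between 0.060 and 0.290, and without Trp53-/- replicate 1 neither passed in Trp53-/- cells (q = 0.114 and 0.078).

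The responses of Mpg did not differ detectably between the genotypes. The difference, wild-type minus Trp53-/-, was -0.06 for the first probe (95% interval -0.36 to 0.24, limma q = 0.675). For the second probe it was -0.14 (-0.42 to 0.15; q = 0.524). With the arrays at hand, differences of a size within these intervals remain possible.

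For Alkbh2, the AlkB enzyme of double-stranded DNA, PJ34 over control was 0.06 and 0.09 on the log2 scale in wild-type, and 0.21 and 0.37 in Trp53-/- cells. Both Trp53-/- arrays were above both wild-type arrays, as such groups are for 44.7% of all probes in one direction or the other. The wild-type mean of 0.08 ± 0.021 (SD, n = 2) did not pass (limma q = 0.316), whereas the Trp53-/- mean of 0.29 ± 0.11 did (q = 0.029). The difference itself was -0.21 (95% interval -0.50 to 0.07) and did not pass (limma q = 0.379), so the genotypes were not shown to differ. Without Trp53-/- replicate 2 the Trp53-/- value was 0.21 (limma q = 0.322), and without Trp53-/- replicate 1 it was 0.37 (q = 0.071). Neither passed.

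Alkbh1 and Alkbh3 gave values close to 0. Alkbh1 had -0.19 and -0.08 in wild-type and 0.07 and -0.06 in Trp53-/- cells, with means of -0.14 ± 0.082 (SD, n = 2, limma q = 0.183) and 0.0082 ± 0.093 (q = 0.482). The difference between the genotypes was -0.14 (95% interval -0.43 to 0.14, limma q = 0.512). Alkbh3, which works with the Ascc helicase complex on alkylated single strands, had 0.06 and 0.23 in wild-type and 0.07 and 0.12 in Trp53-/- cells. Its means were 0.14 ± 0.12 (limma q = 0.169) and 0.09 ± 0.037 (q = 0.265), and the difference was 0.05 (-0.24 to 0.34; q = 0.686).

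Counted together, none of the 5 probes of Mpg, Alkbh1, Alkbh2 and Alkbh3 met the call criteria in wild-type, in Trp53-/- cells or in the difference, since none changed more than 2-fold. At any size of change, 2 of the 5 passed p and q as increases in wild-type, where 12.3% of all probes did, and 3 of the 5 in Trp53-/- cells, where 12.0% did. None of the 5 passed in the difference, where 1.46% of all probes passed in either direction. Under limma, 0 of the 5 differences had an unadjusted p below 0.05, and 14.0% of all probes did.

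The level of each probe in the separate channels shows where the Mgmt ratios arose. In untreated cells, the log2 level of Mgmt was 8.77 and 9.94 in wild-type and 7.83 and 7.91 in Trp53-/- cells. Both Trp53-/- arrays were below both wild-type arrays, and the mean difference was -1.48, 2.79-fold lower in Trp53-/- cells. In PJ34-treated cells, the log2 level was 10.16 and 11.24 in wild-type and 7.01 and 7.27 in Trp53-/- cells. The treated cultures were thus further apart than the untreated ones, with a mean difference of -3.56, 11.8-fold lower in Trp53-/- cells. Over all probes, 55.3% of untreated levels and 55.5% of treated levels did not overlap between the genotypes. The levels of the wild-type arrays were spread, with an SD of 0.83 in untreated and 0.76 in treated cells, against 0.057 and 0.19 in Trp53-/- cells. After normalization, wild-type replicate 2 was the higher of the wild-type arrays for all 6 probes in both channels. Before normalization this held in the PJ34 channel, and in the control channel only for Mgmt and Mpg. The raw control signals of Alkbh1, Alkbh2 and Alkbh3 were 121, 438 and 1363 in wild-type replicate 2 against 160, 517 and 1811 in replicate 1. Without wild-type replicate 2, the untreated difference of Mgmt was -0.89, and without wild-type replicate 1 it was -2.07. Leaving out Trp53-/- replicate 2 gave -1.52.

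No such difference in level was detected for the other genes. For Mpg, the untreated level in Trp53-/- cells minus that in wild-type was -0.07 (95% interval -0.76 to 0.61, limma q = 0.527) at the first probe and -0.26 (-0.98 to 0.46; q = 0.375) at the second. For Alkbh1 it was -0.19 (-0.67 to 0.28; q = 0.353). For Alkbh2 it was 0.28 (-0.26 to 0.82; q = 0.295), and for Alkbh3 it was 0.0041 (-0.44 to 0.45; q = 0.576). In PJ34-treated cells the 5 differences lay between -0.12 and 0.49, the highest being that of Alkbh2 (limma q = 0.163). By the call criteria, 3.32% of all probes differed in untreated and 2.32% in treated level, and none of these 5 did. The intervals are wide, and differences of a size within them were not detectable with these arrays.

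**Figure D2:**
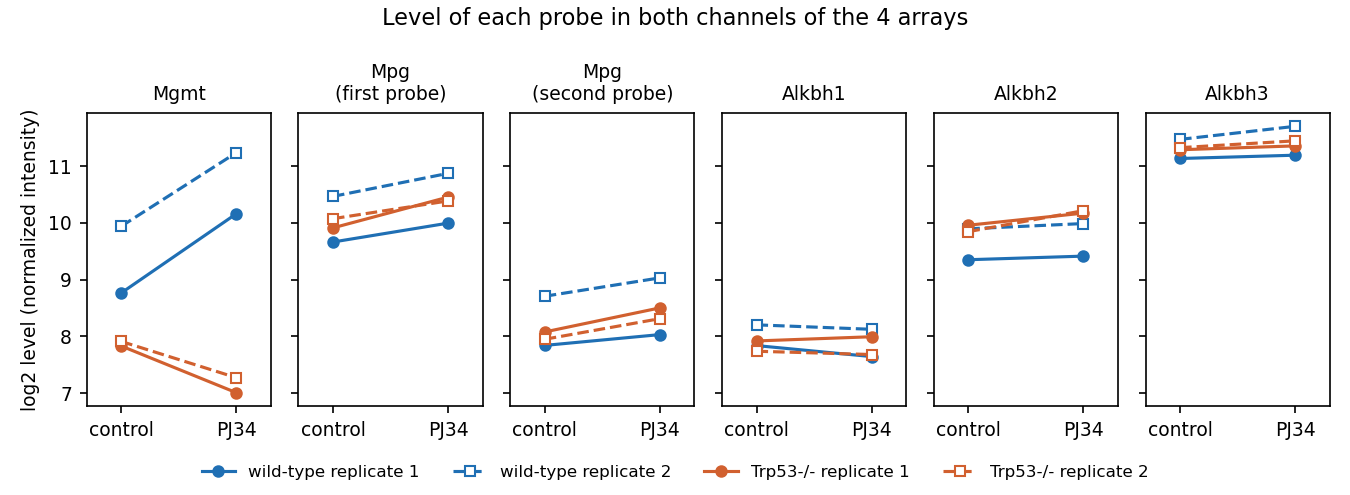
Normalized log2 level (vertical axis) of each probe in the control and PJ34 channels, with 1 line per array (blue, wild-type; orange, Trp53-/-). The wild-type lines of Mgmt rise from 8.77 and 9.94 to 10.16 and 11.24, its Trp53-/- lines fall from 7.83 and 7.91 to 7.01 and 7.27, and the lines of the other probes change by -0.19 to 0.54, with overlapping genotypes in untreated cells.

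Some marker genes of oligodendrocytes, astrocytes and neurons differed with the genotype as well. In untreated level, 3 of 6 kept oligodendrocyte probes, 3 of 8 astrocyte probes and 1 of 8 neuron probes were called, where 3.32% of all probes were. All 7 were higher in Trp53-/- cells. Among them were probes of the myelin genes Mbp (1.98 on the log2 scale) and Mag (1.58), of Gfap (2.38 and 1.83) and S100b (1.89) and of Rbfox3 (1.24). Mog, another myelin gene, had -0.41 and was not called. The astrocyte list did not move as a whole. Aldh1l1 had -0.58 and Gja1 -0.10, whereas Aqp4 had 0.66 and 0.58, and none of these was called. The summed control level of the oligodendrocyte list was 2110 and 3400 in wild-type and 9249 and 9799 in Trp53-/- cells, with 5 of 5 genes above background on every array. The sum of the astrocyte list was 1933 and 3446 in wild-type and 3469 and 3595 in Trp53-/- cells, with 4 of 5 genes above background on every array and Gfap on 3. The sum of the neuron list was 1218 and 1306 against 1987 and 2017, with 4 of 6 genes above background on every array, Stmn2 not, and no probe named Map2. The summed control level of the microglia list was 6700 and 7869 in wild-type and 4959 and 4301 in Trp53-/- cells, with 2 of 5 genes above background on every array and Aif1, Cx3cr1 and C1qa not. The summed level of the neural stem/progenitor markers was 167311 and 133081 in wild-type and 136669 and 136875 in Trp53-/- cells. The part of other cell types in the level of Mgmt was not tested, and fewer cells that make Mgmt cannot be told apart from less Mgmt RNA per cell.

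The rest of the alkylation repair machinery was followed through 5 lists with 38 genes and 52 probes, of which 50 probes of 37 genes were kept. None of the 50 was called in wild-type, in Trp53-/- cells or in the difference. Their median log2 ratio was 0.03 in wild-type and 0.12 in Trp53-/- cells, where the medians of all probes were 0.03 and 0.03. At any size of change, 10 passed p and q as increases and 10 as decreases in wild-type, where 12.3% and 10.4% of all probes did. In Trp53-/- cells 13 passed as increases and 1 as a decrease, where 12.0% and 9.68% of all probes did. These counts depended on the scaling and on single arrays. With the scanner software's own ratios, 1 and 1 passed in wild-type and 1 and 0 in Trp53-/- cells. With median centring 30 and 0 passed in wild-type and 46 and 0 in Trp53-/- cells. Median centring put the median of all kept probes at 0.42 in wild-type and 0.57 in Trp53-/- cells. Without 1 array of a genotype, fewer increases passed in that genotype. The share of all probes that passed as increases then fell as well, so this drop is not particular to the lists.

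The enzymes that act after the glycosylase, which cut the abasic site, fill the gap and seal it, had 15 kept probes. In wild-type, 8 passed as decreases and 1 as an increase, where 10.4% and 12.3% of all probes did, with a median of -0.26. Without wild-type replicate 1 the decreases were 4, where 4.65% of all probes passed as decreases, and without wild-type replicate 2 they were 2, where 5.31% did. Fen1, the flap endonuclease, had -0.48 and -0.66 in wild-type (mean -0.57, limma q = 0.0022) and 0.04 and -0.25 in Trp53-/- cells (mean -0.11). Lig1, the DNA ligase of replication and long-patch repair, had -0.37 and -0.58 in wild-type (mean -0.48, limma q = 0.0037) and 0.09 and 0.15 in Trp53-/- cells (mean 0.12). With median centring in place of loess, Fen1 and Lig1 were at 0.11 and 0.21 in wild-type, so these decreases hold relative to the other probes and not on every scale. Polb, the gap-filling polymerase, went the other way with 0.32 and 0.43 in wild-type (mean 0.37, limma q = 0.010). Without wild-type replicate 2, Lig1 (limma q = 0.069) and Polb (q = 0.117) did not pass in wild-type. None of the 15 passed in the difference. Lig1 came closest with -0.60 (limma q = 0.051), and Tdp1, an enzyme that clears blocked 3′ ends, had -0.39 (q = 0.144).

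Of the 12 kept probes of the other DNA glycosylases, 2 passed as increases and 2 as decreases in wild-type. Over all probes, 12.3% and 10.4% did. In Trp53-/- cells 3 passed as increases, where 12.0% of all probes did. Without 1 array of a genotype fewer passed in that genotype, and the share of all probes fell as well. Ung, which removes uracil, had 0.71 and 0.64 in wild-type (mean 0.68, limma q = 0.00051) and 0.51 and 0.43 in Trp53-/- cells (mean 0.47, q = 0.0041). Neil3 had -0.37 on both wild-type arrays and 0.18 and -0.13 in Trp53-/- cells (difference -0.39, limma q = 0.180). Ogg1, the glycosylase of oxidized guanine, was the 1 list probe called in level. It was lower in Trp53-/- cells by 1.31 on the log2 scale untreated and by 1.21 with PJ34. Its ratios were -0.34 and -0.33 in wild-type and -0.04 and -0.42 in Trp53-/- cells, and its wild-type mean of -0.33 (limma q = 0.030) was 0.26 with median centring. Without Trp53-/- replicate 2, the level differences of Ogg1 were -1.32 and -1.03. No call could be read there, since 0 of all probes were called in either level without that array.

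Of the 9 probes for mismatch repair, the pathway that reads the mispairs left by unrepaired O6-methylguanine, 2 passed as increases in wild-type, where 12.3% of all probes did, and 5 in Trp53-/- cells, where 12.0% did. Without 1 wild-type array fewer passed in wild-type, and the share of all probes fell as well. The Trp53-/- count was 2 without Trp53-/- replicate 1, where 5.94% of all probes passed as increases, and 3 without Trp53-/- replicate 2, where 3.17% did. Exo1, the exonuclease that removes the mismatched strand, had -0.19 and -0.22 in wild-type and 0.49 and 0.34 in Trp53-/- cells, with a difference of -0.62 (limma q = 0.041). It was the only probe of the 50 that passed p and q in the difference, a share near the 1.46% of all probes that did, and it did not reach 2-fold. Without any 1 of the 4 arrays its difference lay between -0.70 and -0.54 and did not pass (limma q between 0.0504 and 0.107). Msh3 at its probe A_55_P1974477 had 0.21 and 0.30 in wild-type and 0.83 and 0.68 in Trp53-/- cells (mean 0.75, limma q = 0.00055), and its other 2 probes had smaller means of 0.29 and 0.33 in Trp53-/- cells.

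The 9 probes of the other AlkB genes had means between 0.09 and 0.41 in wild-type and between 0.0076 and 0.41 in Trp53-/- cells, and 4 passed as increases in wild-type and 3 in Trp53-/- cells, where 12.3% and 12.0% of all probes did. Fewer passed in a genotype without 1 of its arrays, and the share of all probes fell as well. Alkbh6 had the highest mean in wild-type, 0.41 (limma q = 0.0069), which did not pass without wild-type replicate 1 (q = 0.060). Alkbh5, the RNA demethylase of N6-methyladenosine, had the highest in Trp53-/- cells, 0.41 at its probe A_51_P104820 (limma q = 0.015). Alkbh7 had 0.28 in wild-type and 0.0076 in Trp53-/- cells at its probe A_55_P2016681, and Alkbh8, which modifies tRNA, had 0.09 and 0.21. Of the partners of Alkbh3, Ascc1 rose with 0.47 (limma q = 0.0043) and 0.48 (q = 0.0043), the latter not passing without Trp53-/- replicate 2 (q = 0.1002). Ascc3, the helicase, had 0.17 in wild-type and 0.47 in Trp53-/- cells (limma q = 0.0038) at its probe A_51_P421094, and Ascc2 had -0.13 and -0.11 at its probe A_51_P121228.

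**Figure D3:**
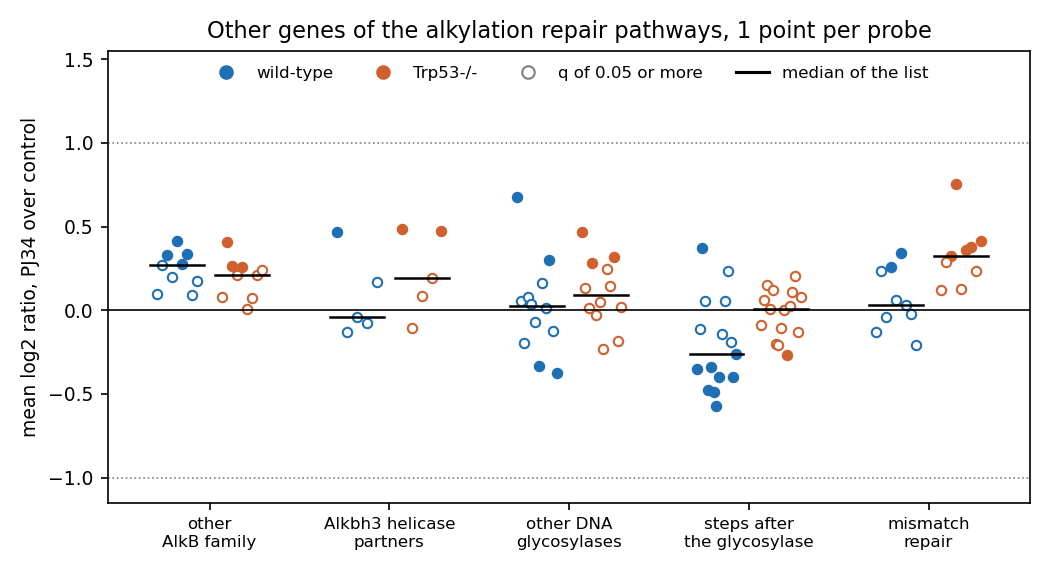
Mean log2 ratio of PJ34 over control (vertical axis, n = 2 arrays) for each kept probe of the 5 lists in wild-type (blue) and Trp53-/- cells (orange); filled points have a q below 0.05, bars are medians and dotted lines mark a 2-fold change. All points lie between -0.57 and 0.75, inside the 2-fold lines, and the enzymes after the glycosylase have a wild-type median of -0.26.

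The genes whose pattern came closest to that of Mgmt were sought among 14936 probes of named genes that were well above background in both channels of all arrays. Over the 4 log2 ratios, the nearest by Euclidean distance was Cdkn1a at 0.574. Fas, a death receptor, followed at 0.611, with ratios of 1.73 and 1.38 in wild-type and -0.48 and -0.27 in Trp53-/- cells. Zfp365 at 0.716, Cpt1c, a brain carnitine palmitoyltransferase, at 0.734 and Ccng1, cyclin G1, at 0.753 came next. Zfp365 and Cpt1c had smaller differences between the genotypes, 1.39 and 1.41, than the 2.08 of Mgmt. With median centring, the Trp53-/- means of Cdkn1a, Zfp365 and Cpt1c were 0.065, 0.38 and 0.18, whereas that of Mgmt remained below 0, at -0.28.

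Over the 8 channel levels, each centred on the mean of its own probe, the nearest were Svop at 0.953, Perp at 0.991, Fas at 1.05, Psrc1 at 1.05 and Bbc3 at 1.18. Svop, a synaptic vesicle protein, had level differences, Trp53-/- minus wild-type, of -1.50 untreated and -3.37 with PJ34 on the log2 scale, against -1.48 and -3.56 for Mgmt. Psrc1 had a lower response in wild-type, 0.77, and the lowest Trp53-/- ratio of the 5, -0.78. Fas was the 1 gene among the nearest by both measures. These distances rest on 4 arrays and describe likeness only.

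**Figure D4:**
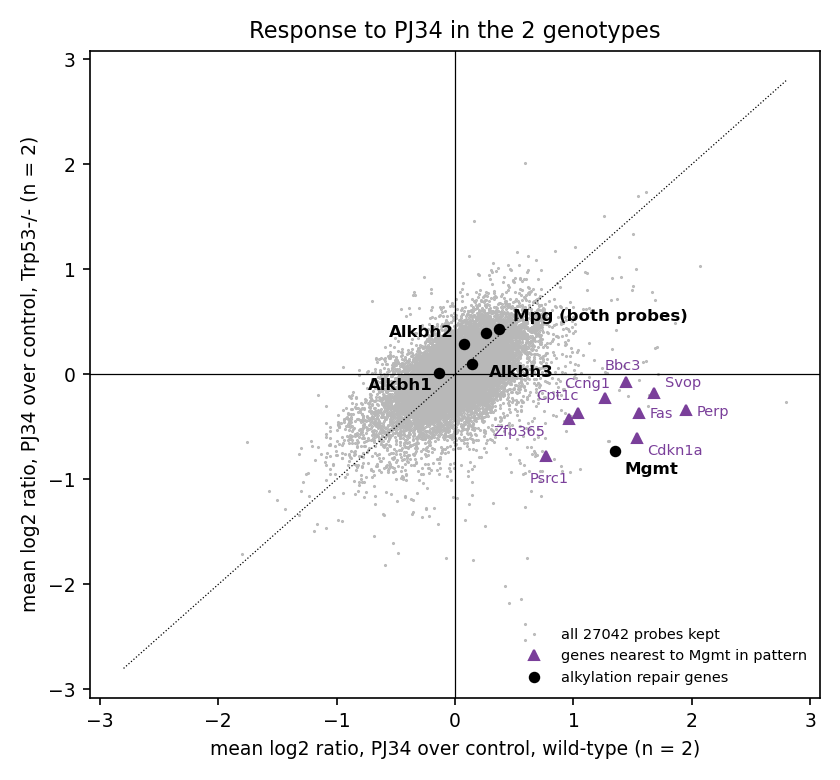
Mean log2 ratio of PJ34 over control in wild-type (horizontal axis) and in Trp53-/- cells (vertical axis), n = 2 arrays each, for all 27042 probes kept (grey), the alkylation repair genes (black) and the genes nearest to Mgmt in pattern (purple); the dotted line marks equal responses. Mgmt lies at 1.35 and -0.73, far below the dotted line, and the other alkylation repair genes lie within the main cloud.

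The probes around Mgmt on chromosome 7 were read to see whether neighbours moved with it. Within 1 Mb of the Mgmt probe there were 33 other probes, of which 18 were kept and 0 were called in wild-type, in Trp53-/- cells or in the difference. Over all probes, 0.436%, 0.318% and 0.422% were called. By limma, 0 of the 18 passed p and q in the difference either, where 1.46% of all probes did. All kept probes lay on the side of higher coordinates, and most of them between 245 and 260 kb, around the probe of 9430038I01Rik. They are thus not separate neighbours. The nearest kept probe, at 39.9 kb, had a difference of -0.03. Ebf3, a transcription factor gene at 65.7 kb, had ratios of 0.04 and 0.15 in wild-type and 0.07 and -0.05 in Trp53-/- cells, a difference of 0.08 (limma q = 0.632). Glrx3, a glutaredoxin gene at 340.0 kb, had differences of 0.36 and 0.37 at its 2 probes (limma q = 0.229 and 0.219). 9430038I01Rik, at 247 kb, was lower in wild-type with -0.83 and -0.37 (mean -0.60, limma q = 0.0031) and had -0.27 on both Trp53-/- arrays, a difference of -0.33 (q = 0.297). Its wild-type mean was 0.010 with median centring. The probe of Gm6249 was too dim to be kept.

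**Figure D5:**
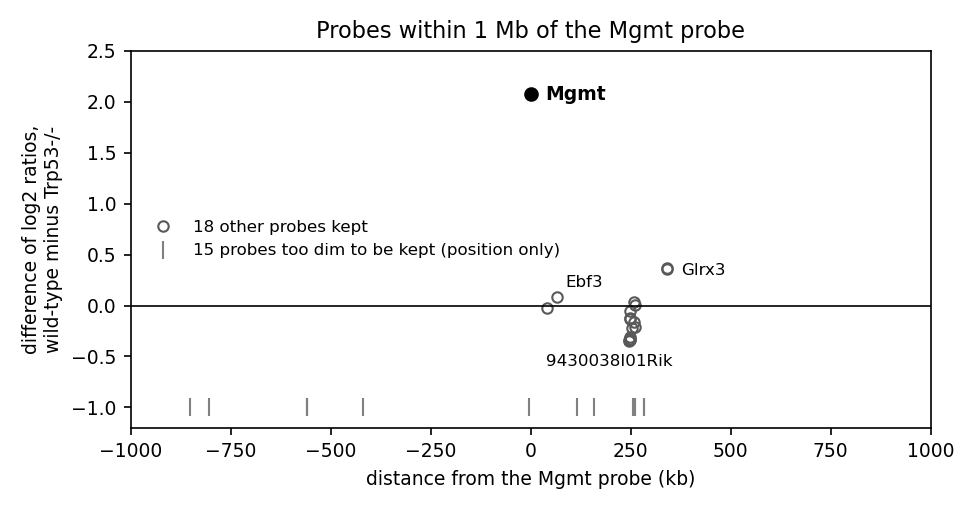
Difference of the log2 ratios, wild-type minus Trp53-/- (vertical axis), against the distance in kb from the Mgmt probe (horizontal axis) for the 18 kept probes within 1 Mb; ticks at the bottom mark the 15 dim probes by position only. Mgmt lies at 2.08 and every kept neighbour between -0.35 and 0.37.

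Because Mgmt responded differently in the genotypes, its promoter was searched for short motifs, in a RefSeq promoter table of GRCm38.p6 with a window of equal length around each annotated start. The stretch upstream of the first annotated start, chr7:136894336-136894462 of GRCm38.p6 on the plus strand, is shown with capitals marking the GC box, GGGCGG on the other strand:
Mgmt promoter: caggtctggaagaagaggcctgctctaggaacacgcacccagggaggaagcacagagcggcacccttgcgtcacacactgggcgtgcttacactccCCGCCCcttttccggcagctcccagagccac
The whole window had a GC content of 66.3% and held 4 GC boxes, all on the other strand, whereas 35.7% of the 32851 promoters in the table held at least 1 on either strand. Mpg held 3 and Alkbh2 held 1, and Alkbh1 and Alkbh3 held 0. No member promoter held a TATA box, TATAAA, which 13.6% of promoters did on either strand. The p53 half-site, which 8.36% of promoters held, was found in none of the member promoters, including the second annotated Mgmt promoter. No match says only that these letters are not in these windows.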

How the data were processed

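The members and the gene lists were chosen with earlier results of these data known. The authors hybridized PJ34 (Cy5) and control (Cy3) RNA and extracted the spots with Agilent Feature Extraction 10.7.3.1, per the submitters' processing notes. The intensity values used here, as deposited, are mean spot and median local background signals, uncorrected. The log10 ratios the authors deposited, background-subtracted and dye-normalized by that software, served as an alternative after conversion to log2. A table with 4 normalized columns was not used here, since its columns match no array by name.

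Background was corrected with limma 3.58.1 in R 4.3.3 (normexp, offset 50) and ratios were normalized by loess, with control and outlier spots (228 to 276 per array) left out. Dim probes were left out: each of the 27042 kept (48.6%) had a channel well above background on both replicates of some genotype. limma (lmFit, eBayes) used a mean per genotype over all 4 arrays. It had 2 residual degrees of freedom, 10.5 after moderation. Storey's q used lambda from 0.05 to 0.95 over all kept probes. Levels were quantile-normalized between arrays on the mean of both channels (Aquantile). A list gene was named if called, or if highest or lowest in its list in a contrast. Some genes of the lists count in the totals and are not reported here by name. In simulated data, 200 of 27036 probes were shifted by 1.5 on the log2 scale in the wild-type arrays. The fit of the difference called 126 of them and 2 unchanged ones. With a shift of 3, the fits of untreated and treated level called 145 and 156 of 200, and 0 and 2 unchanged ones. The number of arrays limits the precision.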

Additional observations from a re-analysis of the deposited data

Results flagged for a closer look

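Mgmt is listed because every wild-type array was higher with PJ34 and every Trp53-/- array was lower, with a difference of 2.08 on the log2 scale. The difference was not tested, since Mgmt was chosen for it. Exo1 is listed because its response to PJ34 differed between the genotypes by -0.62 on the log2 scale (limma, q = 0.041), with both wild-type arrays below 0 and both Trp53-/- arrays above 0. The change was less than 2-fold, and it passed in none of the fits without 1 of the 4 arrays (q between 0.0504 and 0.107). It was 1 of 50 list probes that passed, where 1.46% of all probes did.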

How the results depend on the processing

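The Mgmt ratio kept its sign under all 17 alternatives in each genotype and under all 16 in the difference, and so did its level differences under all 14. Many of these alternatives could not turn the sign. Changes of the filter, the block or the test leave the value as it is. Leaving out 1 of 2 arrays that lie on the same side cannot turn it either. Only a change of background or normalization could. The wild-type value was 1.43 by the scanner's ratios and 1.96 with median centring. The Trp53-/- value was -0.90 with an offset of 16, -1.19 with the scanner's ratios and -0.28 with median centring, and the difference was 2.30, 2.62 and 2.24. Median centring put the median of all probes at 0.42 in wild-type and 0.57 in Trp53-/- cells, so Mgmt lay 0.85 below the median there. Without each array in turn, Mgmt was between 1.30 and 1.40 in wild-type, -0.82 and -0.64 in Trp53-/- cells, 1.99 and 2.17 in the difference, -2.07 and -0.89 in untreated level and -4.10 and -3.02 in treated level.

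The settings of the report called 1, 0, 1, 0 and 1 of the 6 member probes in wild-type, Trp53-/- cells, the difference, untreated and treated level. These are descriptions, since each of them was Mgmt, which was chosen for its response. The scanner's ratios called 1 in Trp53-/- cells and 0 in the difference, where they called 0 of all probes, and median centring called 2 in Trp53-/- cells. The untreated count was 1 with an offset of 16 and with no quantile step between arrays, and 0 to 1 when arrays were left out. The treated count was 0 with no filter on dim probes and 0 to 1 when arrays were left out. Without either Trp53-/- array, 0 of all probes were called in untreated or treated level, so these counts of 0 say nothing of the members. The pathway lists had 0 calls in the ratios, but 19 with median centring. Of all 27042 probes, median centring called 1388 in wild-type and 4024 in Trp53-/- cells, in place of 118 and 86. In the difference it called 43 in place of 114. The causes were not tested. The 2 Mpg probes missed q in 3 of 17 and 8 of 16 alternatives in wild-type and in 2 of 17 and 3 of 16 in Trp53-/- cells, Alkbh2 missed it in 6 of 17 in Trp53-/- cells, and none of these values changed sign. With median centring, values that had passed changed sign for Ogg1 (0.26), Fen1 (0.11), Lig1 (0.21) and 9430038I01Rik (0.010) in wild-type, and for Cdkn1a (0.065), Zfp365 (0.38) and Cpt1c (0.18) in Trp53-/- cells.

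In the log2 ratios, replicate numbers did not pair the arrays (correlation of deviations -0.17). This correlation was not taken for the levels. With the replicate number as a block, the untreated count of member probes was 1 and 1220 probes were called in untreated level in place of 897. In treated level 1198 were called in place of 628. A crossed block, chosen after the data were seen, gave an untreated count of 1, with 133 probes called in the difference and 52 in treated level in place of 114 and 628.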
